A study of Mus musculus with 12 samples.

Results

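The genes described here are 10 members of the Notch pathway. They comprise the receptors Notch1, Notch2 and Notch3, the ligands Dll1, Dll3 and Jag1, the receptor-modifying enzyme Lfng, and the transcriptional targets Hes1, Hes5 and Hey1. They were picked by name: a probe set (a group of short array probes that together read 1 transcript) counted as a member where the platform annotation gave it exactly 1 of these symbols. The rule itself uses no measured value, although the genes were chosen with earlier results of these data known. They make up 10 of 18193 named genes and 17 of 45037 probe sets. Of the 10 genes, 8 (13 of the 17 probe sets) were bright enough to be tested, and Hes5 and Lfng were not.

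Expression was measured in cells of D3, an established mouse embryonic stem cell line, after 7 days in medium with 15% serum. LIF-free plus lithium cultures had lithium, at a concentration the labels state as 50 nM, and no LIF. LIF-free cultures had neither. LIF plus lithium cultures had both, with LIF at 1000 units per ml, and LIF cultures had that LIF alone. Each of these 4 conditions was read on 3 arrays, 12 in all. LIF is a cytokine that keeps mouse embryonic stem cells self-renewing, and lithium is an inhibitor of the kinase GSK3 that is ordinarily used in the millimolar range. The line, the serum and the culture time were the same in every group. All arrays come from this 1 line, and the labels do not mention feeder cells. They call the arrays of a condition biological replicates 1 to 3, and the design text speaks of 3 independent experiments behind each replicate without saying whether their RNA was pooled. The p-values below therefore measure the spread between these samples.

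Notch receptors are single-pass membrane proteins that are activated by ligands on a neighbouring cell. Binding of a Delta-like or Jagged ligand lets ADAM proteases and then gamma-secretase cut the receptor, and the freed intracellular domain enters the nucleus. There it joins the DNA-binding protein RBPJ and a Mastermind coactivator and switches on genes of the Hes and Hey families, which encode transcriptional repressors. Fringe enzymes such as the product of Lfng add sugars to the receptor and shift its response between ligand classes. In mouse embryonic stem cells the pathway is dispensable for self-renewal and is known for promoting neural fate once differentiation begins.

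Promoter sequences were taken from RefSeq (build GRCm38.p6, 250 bases before to 50 bases after the annotated start), where 8 of the 10 genes had an entry. Hes1 and Hey1 had none and were not searched, and Dll1 had more than a single window. The stretches below are shown for Notch2, the member with the largest difference between LIF-free and LIF cultures, and for Hes5 and Lfng, whose windows held the RBPJ motif. Each is written 5′ to 3′ on the gene's own strand. Capitals mark TGGGAA (the RBPJ core, TTCCCA on the other strand), CACNAG (the N box bound by Hes proteins, CTNGTG on the other strand) and CACGCG (another Hes site, CGCGTG on the other strand). The windows are chr3:98013288-98013587 for Notch2, chr4:154960673-154960972 for Hes5 and chr5:140607091-140607390 for Lfng, all on the plus strand.
Notch2: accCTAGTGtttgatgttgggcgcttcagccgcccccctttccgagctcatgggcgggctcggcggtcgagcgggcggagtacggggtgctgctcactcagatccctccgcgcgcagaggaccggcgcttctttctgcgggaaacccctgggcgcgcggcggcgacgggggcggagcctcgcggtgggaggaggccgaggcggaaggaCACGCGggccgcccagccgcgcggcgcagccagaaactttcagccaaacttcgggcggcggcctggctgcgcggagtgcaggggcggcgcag
Hes5: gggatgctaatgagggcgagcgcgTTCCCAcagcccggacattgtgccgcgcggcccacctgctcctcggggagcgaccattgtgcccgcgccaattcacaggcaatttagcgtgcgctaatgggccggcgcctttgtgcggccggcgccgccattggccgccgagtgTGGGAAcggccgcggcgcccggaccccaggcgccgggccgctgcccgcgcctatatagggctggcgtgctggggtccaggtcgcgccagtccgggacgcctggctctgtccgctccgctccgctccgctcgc
Lfng: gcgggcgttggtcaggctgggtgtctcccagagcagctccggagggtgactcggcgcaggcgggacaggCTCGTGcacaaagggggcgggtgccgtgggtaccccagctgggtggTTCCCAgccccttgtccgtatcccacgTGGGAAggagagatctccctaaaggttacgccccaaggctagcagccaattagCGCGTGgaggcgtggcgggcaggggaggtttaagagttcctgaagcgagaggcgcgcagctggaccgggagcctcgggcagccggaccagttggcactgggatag

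The Hes5 window held TGGGAA at positions -82 to -77 from the start and its reverse complement at -226 to -221, with 0 matches to the other motifs. The Lfng window also held 2 TGGGAA matches, at -108 to -103 and, reversed, at -135 to -130, together with 1 CACNAG and 1 CACGCG. No TGGGAA lay in the windows of Notch1, Notch2, Notch3, Dll1, Dll3 or Jag1. The Notch2 window held 1 CACNAG at -247 to -242 and 1 CACGCG at -42 to -37. None of the matches in these 3 windows overlapped another. Of 32851 mouse promoters of this length, 25.6% held TGGGAA, 42.5% CACNAG and 9.27% CACGCG, so a match is common and only describes the letters present.

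Each array had been deposited as MAS5 signal, a linear intensity per probe set, with a median per array of 10.5 to 19.3. Between any 2 arrays log2 signals correlated across probe sets at 0.875 to 0.953. Embryonic stem cell markers checked the label, by the summed signal of 8 of them (Pou5f1, Nanog, Sox2, Zfp42, Esrrb, Klf4, Fbxo15, Dppa5a). The sum ran from 9140 to 14106 on LIF-free arrays of both kinds and from 16996 to 25871 on LIF arrays of both kinds. Dppa5a was its largest part. The means of Dppa5a were 6639 in LIF-free and 8493 in LIF cultures, and 6435 and 6912 in the same order with lithium. Trophoblast markers moved the other way, with a summed signal over 6 genes of 10774 to 13198 on LIF-free arrays and 2902 to 5438 on LIF arrays. Most of that sum came from the keratins Krt8 and Krt18, with means of 5447 and 5990 in LIF-free cultures. The 3′ over 5′ signal ratio of Gapdh, a check of RNA integrity, was 0.739 to 0.802 on LIF-free arrays and 0.798 to 0.860 on LIF arrays. That of beta-actin was higher, at 1.45 to 1.70 on LIF-free arrays and 1.49 to 1.98 on LIF arrays. In RNA of whole cultures, fewer cells of a type and less RNA per cell cannot be told apart.

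Notch2 was the member with the largest change in these data: its signal was higher in LIF-free cultures, and averaged over lithium the difference was 2.83-fold. Without lithium it read 432, 455 and 332 on LIF-free arrays (replicates 1, 2 and 3), against 339.6, 158 and 90.0 on LIF arrays. With lithium it read 580.2, 425 and 346 on LIF-free arrays, against 258, 119 and 72.7 on LIF arrays. All 3 LIF-free plus lithium arrays lay above all 3 LIF plus lithium arrays, while without lithium the brightest LIF array, replicate 1, lay just above the dimmest LIF-free array. The group means were 451 ± 119 in LIF-free plus lithium cultures, 407 ± 65.5 in LIF-free cultures, 150.0 ± 96.5 in LIF plus lithium cultures and 196 ± 129 in LIF cultures (SD, n = 3 each). The level was thus highest in LIF-free plus lithium cultures and lowest in LIF plus lithium cultures, and groups next to each other in that order overlapped.

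In a limma fit over all 12 arrays, with Benjamini-Hochberg adjustment over 27022 probe sets, the log2 change of Notch2 averaged over lithium was 1.50 ± 0.33 (SE, adjusted p = 0.00481, 95% interval 0.80 to 2.21). It was 1.75 ± 0.46 with lithium (adjusted p = 0.0267) and 1.25 ± 0.46 without it (adjusted p = 0.109). The average kept its call without any 1 of the 12 arrays, with a highest adjusted p of 0.0150. The call with lithium was lost without LIF plus lithium replicate 2 or 3 or LIF-free plus lithium replicate 1 or 2, at adjusted p from 0.0794 to 0.127. Without lithium, leaving out LIF replicate 1 gave 1.76 (adjusted p = 0.0158), and leaving out LIF replicate 3 gave 0.80 (adjusted p = 0.343). Entering the replicate numbers as a block over all 12 arrays gave 1.25 ± 0.25 without lithium (adjusted p = 0.00304). The labels do not say what the numbers share, and not every pair of conditions counted as paired by them.

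On LIF arrays of both kinds the replicates of Notch2 spread widely and by number. Replicate 1 was the brightest and replicate 3 the dimmest with and without lithium. LIF-free plus lithium arrays had the same order (580.2, 425 and 346), and replicate 3 was also the dimmest LIF-free array (332). Cell type markers differed between replicates too. The stem cell sum of LIF-free plus lithium arrays rose by number (9140, 12059 and 13650). That of LIF-free arrays was highest in replicate 3 (11212, 11210 and 14106). LIF replicate 1 had the lowest stem cell sum of the LIF cultures, 16996 against 21921 and 25871 in replicates 2 and 3, and the highest trophoblast sum, 5438 against 3318 and 4112. The neural (164), fibroblast (170.1) and endoderm (759) sums of LIF replicate 1 were also the highest of the LIF cultures. Its endothelial sum (121) was the lowest, and its mesoderm sum (77.4) lay between those of replicates 2 and 3. LIF plus lithium replicate 1 likewise had the lowest stem cell sum of its group (19912) and the highest trophoblast sum (4965). Its neural (186) and fibroblast (115) sums were also the highest and its endothelial sum (130) the lowest. Unlike in LIF cultures, its endoderm sum (546) lay between those of replicates 2 and 3, and its mesoderm sum (49.6) was the lowest. The part of these cells in the Notch2 signal was not tested.

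**Figure D1:**
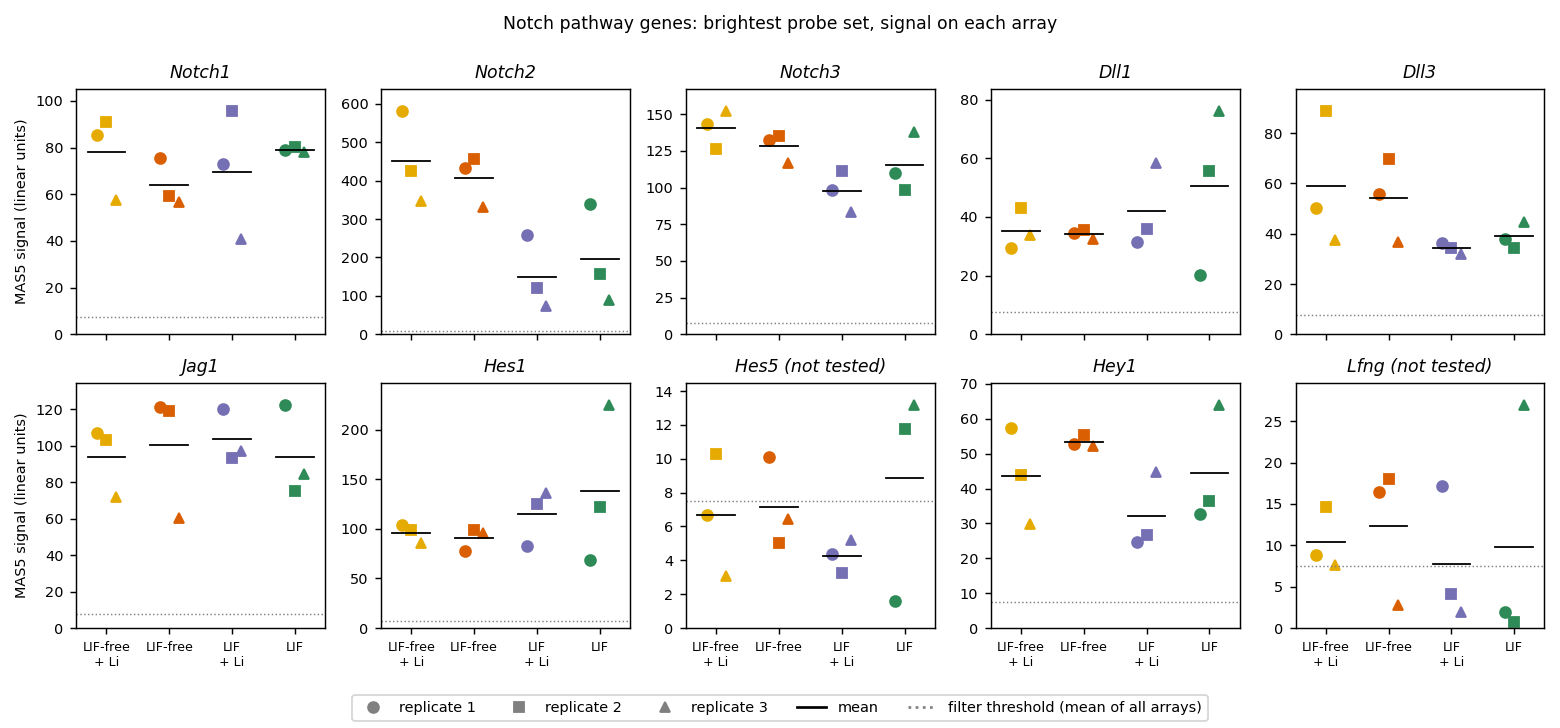
MAS5 signal (linear units, y axis from 0) of the brightest probe set of each of the 10 genes on every array, by condition (x axis); marker shapes give the replicate number, bars the mean of 3 arrays and the dotted line the signal of 7.52 above which the mean of a probe set had to lie to be tested. Notch2 lies at 332 to 580.2 on LIF-free arrays and at 72.7 to 339.6 on LIF arrays. Hes5 (1.60 to 13.2) and Lfng (0.69 to 26.9) have arrays on both sides of the dotted line.

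A second probe set for Notch2, 1451889_at, did not show the change. It was dim, at 1.18 to 18.0 on LIF-free arrays and 3.79 to 21.0 on LIF arrays, and its average log2 change was -0.52 ± 0.60 (limma adjusted p = 0.596). The change of Notch2 therefore rests on 1 bright probe set, 1455556_at, and averaging both sets gave 0.49 (adjusted p = 0.278). Which transcripts the 2 sets read was not examined.

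Notch3, a receptor best known from vascular smooth muscle, differed less. Its brightest probe set read 143, 127 and 152 on LIF-free plus lithium arrays, against 98.6, 112 and 83.0 on LIF plus lithium arrays, so the groups did not overlap. Without lithium it read 133, 135 and 117 on LIF-free arrays, against 110.0, 98.6 and 138 on LIF arrays, and LIF replicate 3 lay above all LIF-free arrays. The log2 change was 0.53 ± 0.18 with lithium (limma adjusted p = 0.0682), 0.16 ± 0.18 without it (adjusted p = 0.632) and 0.35 ± 0.13 on average (adjusted p = 0.0601). None passed the threshold, although the average passed without LIF replicate 3 (0.41, adjusted p = 0.0227). The value with lithium passed without that array too (0.53, adjusted p = 0.0380), through the shared spread, since the array is outside that comparison. Both also passed with the replicate number as a block, although the lithium conditions did not count as paired. Its means were 141 ± 12.9 in LIF-free plus lithium, 128 ± 9.84 in LIF-free, 97.7 ± 14.3 in LIF plus lithium and 115 ± 20.1 in LIF cultures (SD, n = 3 each), the same order of conditions as for Notch2, with overlap between neighbours.

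The second Notch3 probe set, 1421964_at, rose in LIF-free cultures. It read 50.4, 25.0 and 25.9 on LIF-free arrays, against 16.7, 21.3 and 23.3 on LIF arrays. In the lithium pair it read 40.9, 34.8 and 24.4 on LIF-free arrays, against 19.8, 16.6 and 10.5 on LIF arrays. All 6 LIF-free arrays thus lay above all 6 LIF arrays, by a log2 change of 0.89 ± 0.26 on average (limma adjusted p = 0.0243), while the values without and with lithium did not pass (adjusted p = 0.298 and 0.0656). The 2 sets have the same sign in each withdrawal comparison. They differ in whether they pass only on average, where the second set passed and the brightest did not.

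Notch1, the receptor most studied in lymphocytes and neural progenitors, showed no detectable change. It read 75.7, 59.4 and 56.5 on LIF-free arrays, against 79.0, 80.4 and 77.9 on LIF arrays, so without lithium all LIF-free arrays were lower. Lithium cultures read 85.4, 91.1 and 57.5 on LIF-free arrays, against 72.8, 95.5 and 40.7 on LIF arrays, which overlapped widely. The log2 changes were -0.32 ± 0.29 without lithium (limma adjusted p = 0.548), 0.22 ± 0.29 with it (adjusted p = 0.683) and -0.05 ± 0.20 on average (adjusted p = 0.898, 95% interval -0.49 to 0.39). Its means were 78.0 ± 18.0 in LIF-free plus lithium, 63.9 ± 10.3 in LIF-free, 69.7 ± 27.5 in LIF plus lithium and 79.1 ± 1.24 in LIF cultures (SD, n = 3 each), and groups next to each other in level overlapped. The other Notch1 set, 1418633_at, had an average log2 change of -0.12 ± 0.22 (adjusted p = 0.756).

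Among the ligands, Dll3, which lacks the signalling activity of the other Delta-like proteins and inhibits Notch within the same cell, had the highest average log2 change. Without lithium it read 55.7, 69.8 and 36.7 on LIF-free arrays, against 37.8, 34.4 and 44.6 on LIF arrays. With lithium it read 50.4, 88.7 and 37.6 on LIF-free arrays, against 36.3, 34.2 and 32.0 on LIF arrays. Only with lithium did the groups not overlap, and there by a narrow gap, 37.6 against 36.3. The average log2 change of 0.56 ± 0.22 did not pass (limma adjusted p = 0.0875), nor did 0.69 ± 0.32 with lithium (adjusted p = 0.181) or 0.43 ± 0.32 without it (adjusted p = 0.448). Replicate 3 was the dimmest and replicate 2 the brightest array of both LIF-free groups. Without LIF-free replicate 3 the average was 0.69 (adjusted p = 0.0443), and without LIF-free plus lithium replicate 3 it was 0.70 (adjusted p = 0.0348). The average also passed with the replicate number as a block. Without LIF-free plus lithium replicate 2 the average was 0.39 (adjusted p = 0.210) and the value with lithium 0.35 (adjusted p = 0.568), and without LIF-free replicate 2 the value without lithium was 0.23 (adjusted p = 0.797). The means were 58.9 ± 26.6 in LIF-free plus lithium, 54.1 ± 16.6 in LIF-free, 34.2 ± 2.16 in LIF plus lithium and 38.9 ± 5.23 in LIF cultures (SD, n = 3 each), and neighbours in level overlapped.

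Dll1, an activating ligand used in somite and neural development, had its widest spread in LIF cultures. It read 34.6, 35.4 and 32.5 on LIF-free arrays, against 20.2, 55.7 and 76.0 on LIF arrays. In the lithium pair it read 29.4, 42.9 and 33.7 on LIF-free arrays, against 31.5, 35.8 and 58.5 on LIF arrays. All 6 LIF-free values lay inside the range of the 6 LIF values, and the average log2 change was -0.29 ± 0.29 (limma adjusted p = 0.534). It was -0.57 without LIF replicate 1 and -0.09 without LIF replicate 3, and passed in neither case. Its means were 35.4 ± 6.90 in LIF-free plus lithium, 34.2 ± 1.53 in LIF-free, 41.9 ± 14.5 in LIF plus lithium and 50.6 ± 28.2 in LIF cultures (SD, n = 3 each), highest in LIF and lowest in LIF-free cultures, with overlap between all neighbours.

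Jag1, the ligand of the Jagged class on this list, was alike in the 4 conditions within the spread of the arrays. It read 121, 119 and 60.3 on LIF-free arrays, against 122, 74.9 and 84.7 on LIF arrays, and with lithium 107, 103 and 71.9 on LIF-free arrays, against 120.4, 93.1 and 97.1 on LIF arrays. The average log2 change was -0.05 ± 0.20 (limma adjusted p = 0.899), with a 95% interval of -0.48 to 0.39. Group means lay between 93.9 and 104, the highest in LIF plus lithium cultures, and all groups overlapped. The 2 dimmer Jag1 sets, 1421105_at and 1421106_at, had average log2 changes of 0.20 and 0.21 (adjusted p = 0.798 and 0.671).

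The enzyme gene Lfng was too dim to test. Its brighter set read 16.4, 18.0 and 2.76 on LIF-free arrays, against 1.88, 0.69 and 26.9 on LIF arrays. Lithium cultures read 8.79, 14.6 and 7.64 on LIF-free arrays, against 17.2, 4.15 and 1.95 on LIF arrays. Replicates of 1 condition thus differed more than the conditions did, at signals near background, and the second set stayed between 0.37 and 2.75 throughout.

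Of the targets, Hes1, the repressor that cycles in embryonic stem cells and neural progenitors, was lower in mean without LIF and varied most among LIF cultures. It read 77.4, 98.9 and 95.9 on LIF-free arrays, against 68.8, 122 and 225 on LIF arrays. With lithium it read 104, 99.0 and 86.3 on LIF-free arrays, against 82.6, 125 and 136 on LIF arrays. Replicate 1 was the dimmest and replicate 3 the brightest LIF array with and without lithium, the reverse of Notch2. The average log2 change of -0.34 ± 0.24 did not pass (limma adjusted p = 0.347). It passed without LIF replicate 1 (-0.55, adjusted p = 0.0439) and was -0.12 without LIF replicate 3 (adjusted p = 0.682), so single arrays of LIF cultures set its size. The means were 96.3 ± 9.00 in LIF-free plus lithium, 90.7 ± 11.7 in LIF-free, 115 ± 28.3 in LIF plus lithium and 139 ± 79.4 in LIF cultures (SD, n = 3 each), the same order of conditions as for Dll1, with overlap throughout.

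**Figure D2:**
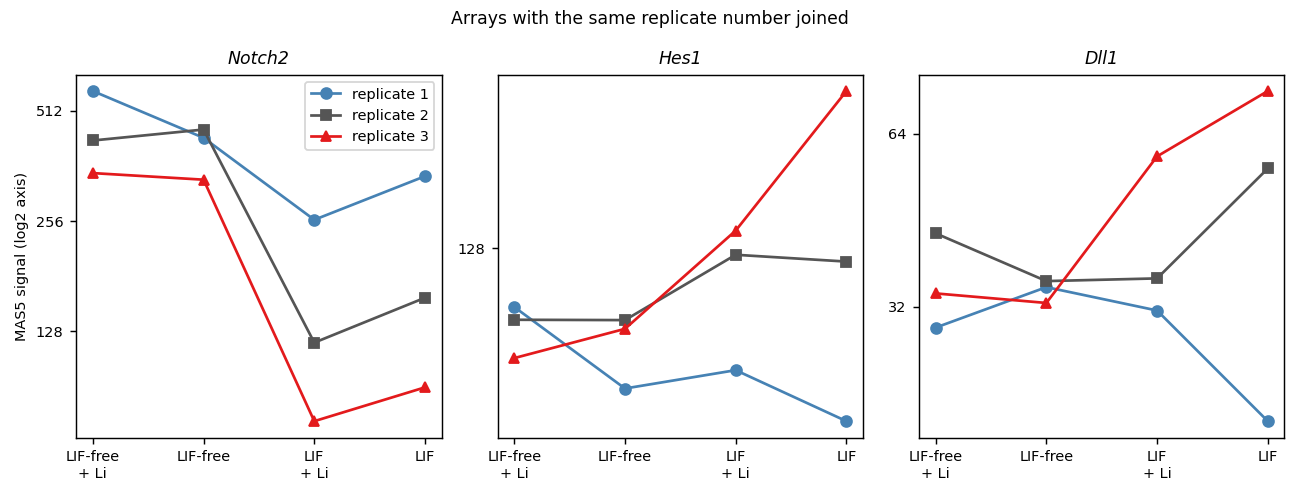
MAS5 signal (log2 axis) of Notch2, Hes1 and Dll1 in the 4 conditions (x axis), with arrays of the same replicate number joined; the lines mark equal numbers and no course in time. In LIF cultures replicate 1 is highest for Notch2 (339.6) and lowest for Hes1 (68.8) and Dll1 (20.2), while replicate 3 is lowest for Notch2 (90.0) and highest for Hes1 (225) and Dll1 (76.0).

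Hey1, a Notch target prominent in blood vessels and heart, was tested without a call. It read 52.7, 55.4 and 52.2 on LIF-free arrays, against 32.6, 36.4 and 63.9 on LIF arrays. In the lithium pair it read 57.3, 44.0 and 29.8 on LIF-free arrays, against 24.8, 26.6 and 44.9 on LIF arrays. Without lithium LIF replicate 3 lay above all LIF-free arrays, with lithium LIF replicate 3 lay inside their range, and the other LIF arrays lay below them in both pairs. The average log2 change was 0.39 ± 0.23 (limma adjusted p = 0.256, 95% interval -0.11 to 0.90). Its means were 43.7 ± 13.7 in LIF-free plus lithium, 53.5 ± 1.72 in LIF-free, 32.1 ± 11.1 in LIF plus lithium and 44.3 ± 17.1 in LIF cultures (SD, n = 3 each), with overlap between neighbours in level.

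Hes5, the target most closely tied to Notch activity in neural progenitors, was not tested because both its sets were dim. The brighter set read 10.1, 5.02 and 6.41 on LIF-free arrays, against 1.60, 11.7 and 13.2 on LIF arrays, and with lithium 6.66, 10.3 and 3.10 on LIF-free arrays, against 4.36, 3.22 and 5.21 on LIF arrays. These values scatter around the filter with no separation of groups. The second set, 1456010_x_at, an array design that can cross-hybridise, read 0.30 to 10.1.

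Counted together, 0 of the 8 tested members passed by limma in withdrawal without lithium, where 9.31% of all probe sets did, and 1 (Notch2) had an unadjusted p under 0.05, against 24.4% of all probe sets. With lithium 1 of 8 passed, Notch2, beside 12.5% of all probe sets, and averaged over lithium again Notch2 alone of 8, beside 24.7%. At an unadjusted p under 0.05 there were 3 of 8 with lithium and 3 of 8 on average, against 26.9% and 35.6% of all probe sets. The share of members that passed is thus near or under the background in each comparison. Entering the replicate number as a block raised the number of probe sets called without lithium to 5260, against 2515. The median log2 change of the 8 members was 0.11 without lithium, 0.33 with it and 0.15 on average, and that of all probe sets was -0.07, 0.11 and 0.02. Groups did not overlap for 1 member without lithium (Notch1, lower) and 3 with lithium (Notch2, Notch3 and Dll3, higher), while 27.5% and 33.4% of all probe sets did not overlap. Over all 6 LIF-free and 6 LIF arrays every member overlapped by its brightest set, against 14.1% of probe sets that did not. Centring each array on its median shifted the median of all probe sets by more than 0.1, to 0.13 without lithium and -0.23 with it. Measured after that centring, Notch2 had log2 changes of 1.45 and 1.41, and it kept its sign.

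**Figure D3:**
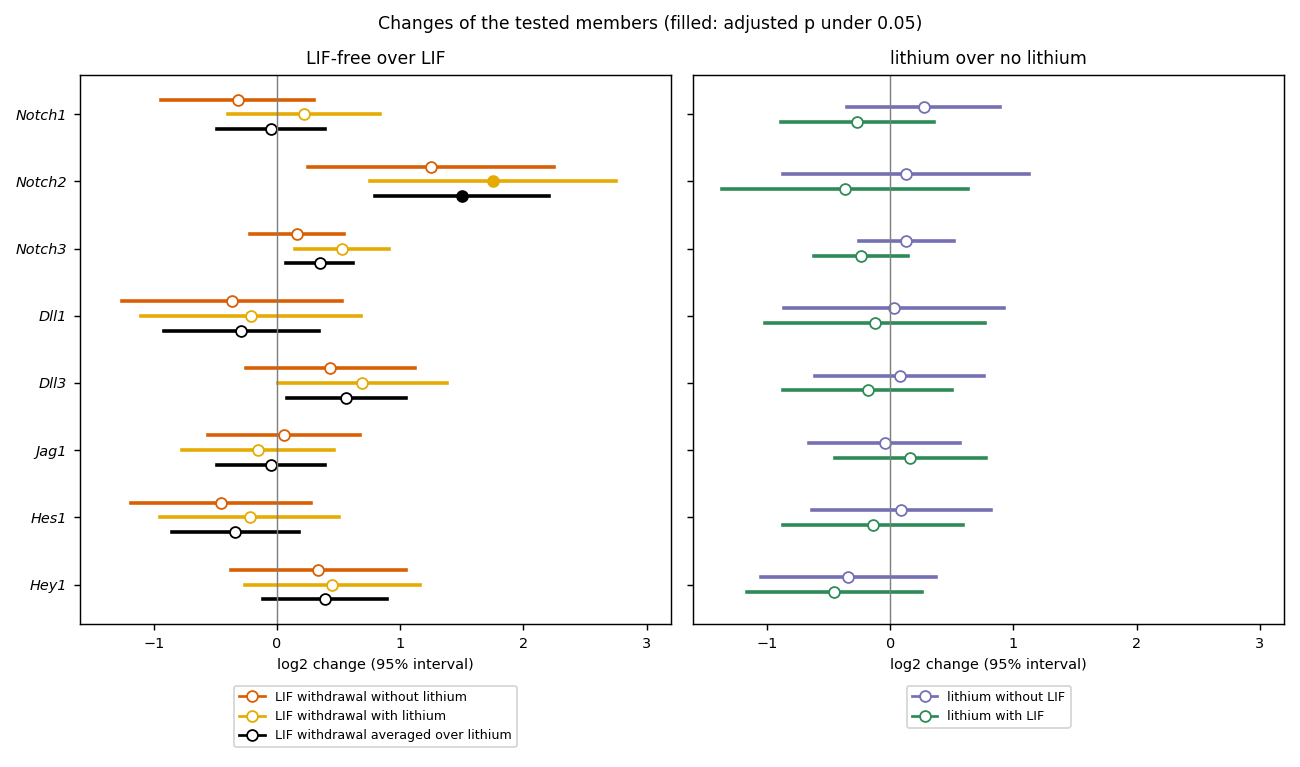
Log2 change (x axis) with its 95% interval for the 8 tested genes, LIF-free over LIF on the left and lithium over no lithium on the right; filled points passed an adjusted p of 0.05. Notch2 lies at 1.25 without lithium, 1.75 with it and 1.50 on average, and every lithium interval includes 0.

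Lithium changed no member detectably. In LIF cultures 0 of 8 members passed, and in LIF-free cultures again 0 of 8, and 0% of the 27022 probe sets passed in either comparison by limma. At an unadjusted p under 0.05 there were 0 members in each, with 749 probe sets (2.77%) with LIF and 347 (1.28%) without LIF. For Notch2 the log2 change with lithium was -0.37 ± 0.46 in LIF cultures and 0.13 ± 0.46 in LIF-free cultures, both within the spread of the arrays (limma adjusted p = 0.999 and 1.0). The lowest estimate was that of Hey1 in LIF cultures, -0.45 ± 0.33, and the highest that of Notch1 in LIF-free cultures, 0.27 ± 0.29, and neither passed. Taken over all 8 members, the 95% intervals reached from -1.37 to 0.78 with LIF and from -1.05 to 1.13 without it. No member separated lithium from no lithium without overlap, against 6.72% of probe sets with LIF and 6.01% without LIF.

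The difference between the withdrawal effects with and without lithium, tested as an interaction, passed for 0 of 8 members and for 0% of probe sets by limma. At an unadjusted p under 0.05 it held 0 members and 666 probe sets (2.46%). Notch2 had an interaction of 0.50 ± 0.65 and Notch1 of 0.54 ± 0.41 on the log2 scale (limma adjusted p = 0.999 for both). That Notch2 passed with lithium and not without it is therefore not shown to be a difference between the 2 settings.

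**Figure D4:**
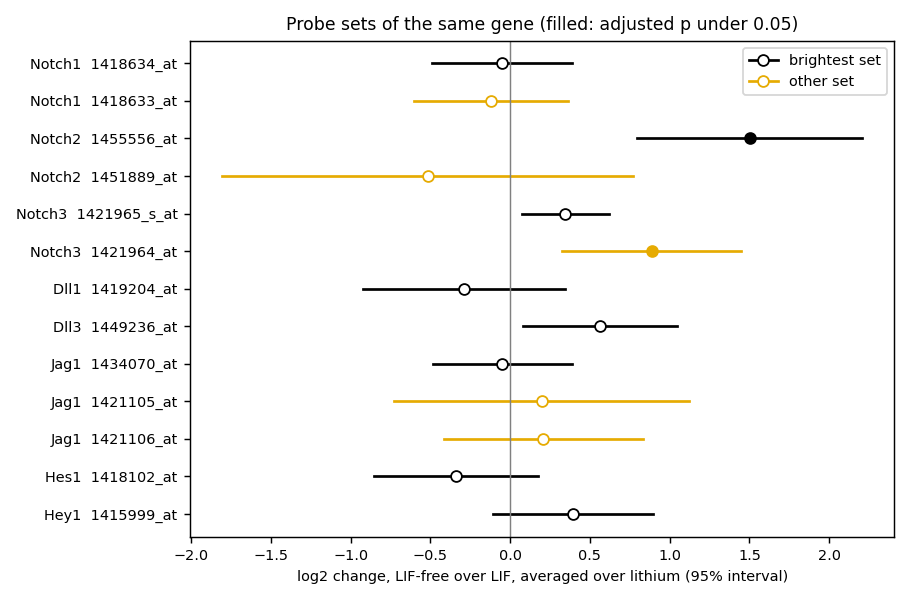
Log2 change, LIF-free over LIF averaged over lithium (x axis, 95% interval), for all 13 tested probe sets of the 8 genes; black marks the brightest set of a gene, yellow the others, and filled points passed an adjusted p of 0.05. The Notch2 sets lie at 1.50 and -0.52, and both Notch3 sets lie above 0, at 0.35 and 0.89.

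Beyond these genes, 56 others of the pathway were listed by role, of which 52 are on the array by symbol and 47 were tested. Averaged over lithium, 8 of the 47 rose and 8 fell with LIF withdrawal, or 16 in all, beside the 24.7% of all probe sets noted above. Their median log2 change was 0.03, against 0.02 for all probe sets. Log2 changes of single genes below are averages over lithium unless stated. Of the genes called on average, Notch4, Adam10, Adam17, Nrarp, Bhlhe40 and Tle4 passed neither without lithium nor with it. Without lithium 5 rose and 5 fell, or 10 in all, beside 9.31% of all probe sets. With lithium 3 rose and 4 fell, or 7 in all, beside 12.5%. At an unadjusted p under 0.05 by limma there were 14 of 47 without lithium, 20 with it and 22 on average. The shares of all probe sets were 24.4%, 26.9% and 35.6%. Lithium itself and the interaction passed for 0 of 47 (limma), with 3, 1 and 3 at an unadjusted p under 0.05 in lithium with LIF, lithium without LIF and the interaction, against 2.77%, 1.28% and 2.46% of all probe sets.

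The DNA-binding partner of every Notch receptor, Rbpj, fell. It averaged 718 ± 97.1 in LIF-free plus lithium cultures and 719 ± 74.0 in LIF-free cultures, against 1139.6 ± 25.0 in LIF plus lithium and 1161 ± 83.4 in LIF cultures (SD, n = 3 each). All 6 LIF-free arrays (623 to 817) lay below all 6 LIF arrays (1070.4 to 1234). The log2 change was -0.69 ± 0.13 without lithium (limma adjusted p = 0.00604), -0.68 ± 0.13 with it (adjusted p = 0.00538) and -0.69 ± 0.09 on average (adjusted p = 0.000193). Its 2 other probe sets fell as well, and no single array ended the call. Median centring ended the call without lithium (-0.50, adjusted p = 0.394) but not the other 2 calls.

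Around RBPJ in the nucleus, 13 genes were tested, of which 1 rose and 5 fell on average. Of all probe sets, 13.9% rose and 10.8% fell in that comparison, the background for the counts of each role, which hold few genes. Maml1, a Mastermind coactivator of the Notch complex, rose by 0.79 ± 0.15 on the log2 scale (limma adjusted p = 0.00225), with 200.3 ± 22.1 in LIF-free against 107 ± 34.7 in LIF cultures. Its other tested probe set rose by 0.44 without a call. Averaged over all its probe sets, those too dim to test included, Maml1 had 0.10 and lost its call (adjusted p = 0.827). The histone acetyltransferases Kat2b and Kat2a, which assist that complex, changed by -1.11 ± 0.15 and -0.76 ± 0.17 (adjusted p = 0.00018 and 0.00528). Kat2b averaged 307 ± 110 in LIF-free plus lithium and 313 ± 32.5 in LIF-free cultures, against 765 ± 45.7 in LIF plus lithium and 563 ± 71.7 in LIF cultures. The deacetylase Hdac2 changed by -0.51 ± 0.08 (adjusted p = 0.00071), and the Groucho-type corepressor Tle4 by -0.60 ± 0.18 (adjusted p = 0.0295). The call of Tle4 was lost without LIF replicate 1 or 2, LIF plus lithium replicate 2, LIF-free replicate 1 or 3, or LIF-free plus lithium replicate 1, at adjusted p from 0.0514 to 0.0790. Median centring (adjusted p = 0.1005), an untrended variance (0.0645) and the mean over its probe sets (0.256) ended it too.

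Receptor processing held 11 tested genes, of which 3 rose and 0 fell. Aph1b, a subunit of the gamma-secretase that cuts Notch, rose by 1.13 ± 0.20 on the log2 scale (limma adjusted p = 0.00124), with 75.4 ± 25.4 in LIF-free against 33.7 ± 7.25 in LIF cultures. The proteases Adam10 and Adam17, which make the preceding cut, rose by 0.57 ± 0.14 and 0.47 ± 0.13 (adjusted p = 0.0102 and 0.0210). Adam10 averaged 517 ± 54.8 in LIF-free and 358 ± 111 in LIF cultures. Adam17 did not pass without LIF replicate 2, LIF plus lithium replicate 3 or LIF-free replicate 1 (adjusted p from 0.0514 to 0.0533). Median centring ended the calls of Adam10 and Adam17 (adjusted p = 0.132 and 0.221), and the mean over its probe sets ended that of Adam10 (0.102). The fringe gene Mfng had -1.47 ± 0.52 and did not pass (adjusted p = 0.0559).

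Of 6 further receptors and ligands 1 rose and 1 fell. Dlk1, a Delta-like membrane protein that lacks the receptor-activating domain and is imprinted, had the largest rise on the list. It read 103, 190.4 and 64.1 on LIF-free arrays, against 39.1, 20.4 and 40.2 on LIF arrays, and with lithium 128, 150.0 and 54.8 on LIF-free arrays, against 9.55, 12.9 and 12.4 on LIF arrays. All LIF-free arrays were above all LIF arrays, by a log2 change of 2.45 ± 0.31 on average (limma adjusted p = 0.000153). This is the value of its brightest probe set, and the mean over all its sets gave 0.84 without a call (adjusted p = 0.107). No other Dlk1 set was bright enough to test. Notch4, the endothelial receptor, fell by 1.13 ± 0.27 on the log2 scale (adjusted p = 0.0076), between low signals of 11.7 ± 3.24 in LIF-free and 25.7 ± 9.50 in LIF cultures. After adding 16 to every signal the log2 change was -0.58 and still passed (adjusted p = 0.00717).

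Endocytosis and receptor turnover held 12 genes, with 2 higher and 1 lower. Numb, an adaptor that promotes removal of Notch from the membrane, rose by 0.65 ± 0.12 (limma adjusted p = 0.00222), with 223 ± 34.2 in LIF-free and 142 ± 21.9 in LIF cultures. The Deltex ubiquitin ligases moved in opposite directions: Dtx2 changed by 0.70 ± 0.14 (adjusted p = 0.00286) and Dtx1 by -1.35 ± 0.25 (adjusted p = 0.00175). Dtx2 lost its call under median centring (0.62, adjusted p = 0.0754) and had 0.44, still called, as the mean over its probe sets (adjusted p = 0.0045), where Dtx1 had -0.76 and lost its call (adjusted p = 0.104). No other Dtx1 set was bright enough to test. Dtx1, itself a Notch target in lymphocytes, averaged 82.8 ± 15.9 in LIF-free plus lithium and 84.0 ± 31.4 in LIF-free cultures, against 189 ± 27.2 in LIF plus lithium and 254 ± 146 in LIF cultures.

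Among 5 further targets and relatives, Nrarp, a Notch-induced inhibitor of the Notch complex, rose by 0.53 ± 0.16 (limma adjusted p = 0.0309), and Bhlhe40, a related repressor, changed by -0.69 ± 0.20 (adjusted p = 0.0222). Nrarp did not pass without replicate 2 of any of the 4 conditions (adjusted p from 0.0709 to 0.0856). Bhlhe40 did not pass without LIF replicate 3, LIF plus lithium replicate 2 or 3, LIF-free replicate 1 or LIF-free plus lithium replicate 1 (adjusted p from 0.0503 to 0.0596). Median centring ended both calls (0.217 for Nrarp and 0.0827 for Bhlhe40), as did quantile normalisation (0.0553) and the mean over probe sets (0.215) for Nrarp and an untrended variance (0.0508) for Bhlhe40. Hes6, Hey2 and Heyl had 0.07, 0.58 and 0.47 and did not pass (adjusted p = 0.835, 0.291 and 0.358).

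**Figure D5:**
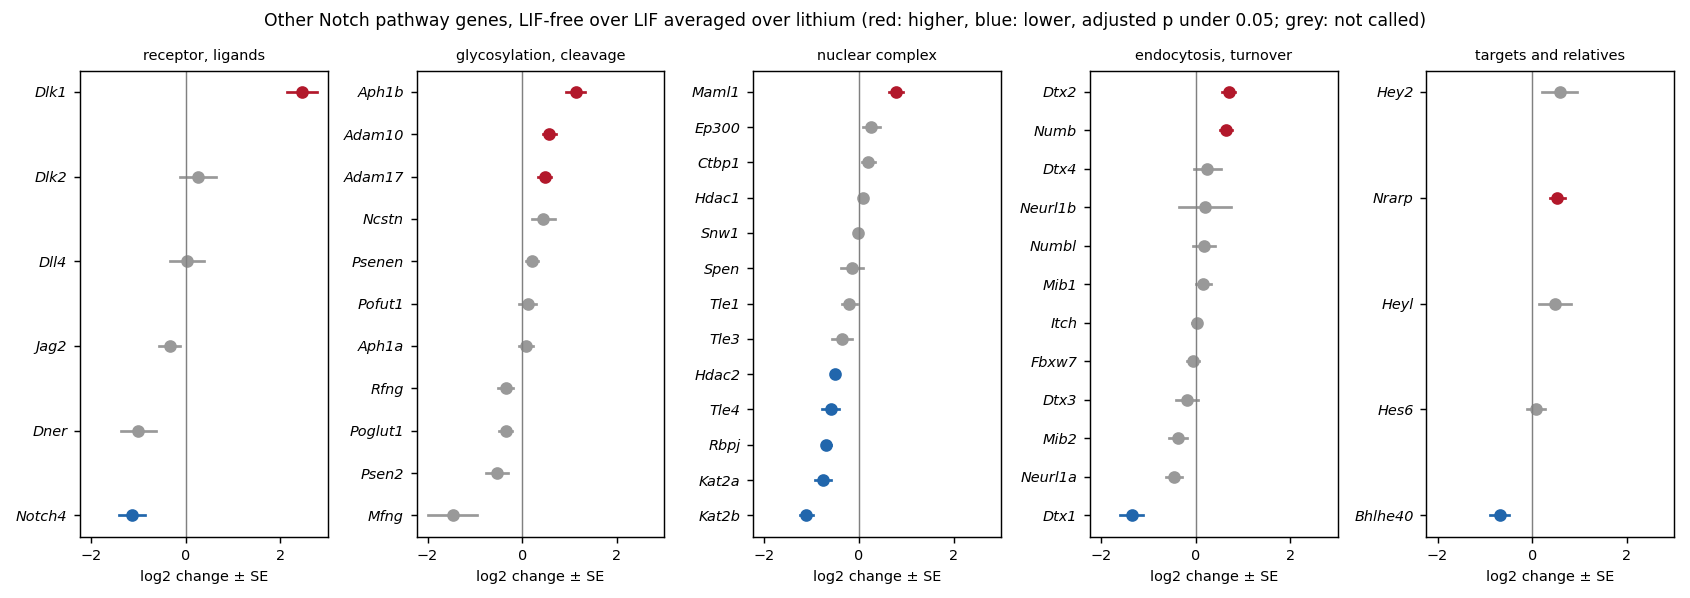
Log2 change ± SE (x axis), LIF-free over LIF averaged over lithium, for the 47 tested pathway genes outside the 10, by role; red marks a rise and blue a fall at an adjusted p under 0.05, and grey no call. The largest rise is Dlk1 at 2.45 and the largest call downward Dtx1 at -1.35, and 5 of 13 genes of the nuclear complex fell.

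Markers of cell types in which Notch genes are known to act moved in part with LIF. The background for the counts below is that 13.9% of all probe sets rose and 10.8% fell on average. Of 8 stem cell markers 7 fell on average by limma, and Dppa5a, the largest part of their sum, did not pass (-0.22, adjusted p = 0.237). All 5 tested trophoblast markers rose, among them Krt8 (1.65) and Cdx2 (1.92) on the log2 scale. Elf5 of the trophoblast list was below the filter. Its means were 5.94 in LIF-free and 4.12 in LIF cultures, and 3.93 and 6.56 in the same order with lithium. Among presomitic and paraxial mesoderm markers, a tissue with Dll3 and Lfng expression, 2 of 5 rose (Mesp1 by 1.13 and Pcdh8 by 2.74), with summed signals over 7 genes of 77.6 to 149 on LIF-free arrays and 49.6 to 87.6 on LIF arrays. Ripply2 and Meox1 of that list were below the filter. Among 7 neural markers 1 rose (Zic1) and 1 fell (Neurod1), and their sum over 8 genes was 135 to 157 on LIF-free arrays and 131 to 186 on LIF arrays. Among 4 endothelial markers Kdr rose and Pecam1 fell, with Tie1 below the filter, and their sum over 5 genes was 77.3 to 125 on LIF-free arrays and 121 to 220.0 on LIF arrays. Among 6 fibroblast markers 3 rose (Col1a1, Col3a1 and Postn) and 1 fell (Thy1), with a sum of 114 to 283 on LIF-free arrays and 71.3 to 170.1 on LIF arrays. Some of these calls rest on low signals. Zic1, Neurod1 and Col1a1 had means of 23.7, 5.40 and 17.0 in LIF-free against 10.1, 29.5 and 6.66 in LIF cultures. Among 6 endoderm markers Sox17 rose and Amn fell, with a sum over 7 genes of 578 to 900 on LIF-free arrays and 330.2 to 793 on LIF arrays. The part of any of these cell types in the Notch gene signals was not tested.

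For each tested member the 2 named genes with the most similar signals over the 12 arrays were found by Pearson correlation among 12208 genes. The arrays share their conditions and replicate numbers, so these are descriptions only. Notch2 was closest to Cd44, an adhesion receptor (r = 0.983), and Samd9l (0.981). Dll3 was closest to Cnot9 (0.942) and Eomes, a T-box factor of early mesoderm and trophoblast (0.938). Notch3 was closest to Arid3b (0.945) and Mast2 (0.930), Hes1 to Capns1 (0.978) and Nfkbil1 (0.960), and Dll1 to Zfp414 (0.960) and Prss36 (0.917). For Notch1 (Dph2, 0.886, and Arfgef2, 0.862), Jag1 (Poln, 0.887, and Phactr1, 0.872) and Hey1 (Ramp2, 0.873, and Tmem161a, 0.869) the closest genes were less similar.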

How the data were processed

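RNA samples of cultured cells were hybridised to 12 Affymetrix mouse arrays, 1 sample each. The authors' deposited values are linear signal intensity, 1 per probe set, and come from MAS5 per the submitters' processing notes, which give no version or settings; a trimmed mean of 100 on every array shows scaling to 1 target. The arrays carry 45101 probe sets, and the 64 controls among them were dropped. A floor of 1 was applied before log2, and it touched 0.146% of tested values. The 27022 probe sets with a mean log2 over all arrays above the 40th percentile (a signal of 7.52) were tested. Symbols came from the platform annotation (34945 probe sets with 1 symbol, 932 with several and 9160 with none; only the first were named). A gene stands for its brightest probe set, with others as a check. Arrays limit precision by their number, 3 per condition.

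The tests used limma 3.58.1 under R 4.3.3, with all 12 arrays in 1 linear model that holds a mean for each condition (8 residual degrees of freedom) and a trended empirical Bayes variance. Tests were two-sided, with Benjamini-Hochberg adjustment over all tested probe sets and a threshold of 0.05, for 6 comparisons: LIF withdrawal without lithium, with lithium and averaged, lithium with and without LIF, and the interaction. The fit was tested on simulated data. Plots used Python 3.11.15 and matplotlib 3.10.9.

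The members and all gene lists were chosen with earlier results of these data known. All 10 members were named whatever their values, other pathway genes where they passed in a comparison (a few that did not pass were named after their values were seen: Mfng, Hes6, Hey2 and Heyl), and the 2 genes most like each tested member.

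Replicate numbers in the titles were checked for pairing by correlating array deviations from condition means, with a minimum of 0.1 for every number. Correlations for replicates 1, 2 and 3 were 0.438, 0.137 and 0.339 between LIF-free and LIF, 0.499, 0.139 and 0.321 between LIF plus lithium and LIF, and 0.462, 0.111 and 0.300 between LIF-free plus lithium and LIF-free, which count as paired. They were 0.451, 0.0972 and 0.379 between LIF-free plus lithium and LIF plus lithium, which does not count. The alternatives changed the scaling (quantile normalisation or median centring), the log (adding 16), the filter (none, or the 60th percentile), the model (replicate number as a block, an untrended variance, weights per array, or fitting the compared arrays alone), the summary of a gene (averaging its probe sets) and the arrays (omitting each in turn). The averaging over probe sets took in sets below the filter.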

Additional observations from a re-analysis of the deposited data

How the results depend on the processing

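No result changed direction past the threshold under any alternative. Withdrawal without lithium had 0 members called, and 1 (Notch2) under median centring (adjusted p = 0.0375), the replicate block and array weights (0.00335); leaving out 1 array gave 0 to 1. With lithium, 1 member was called (Notch2). There were 2 with the replicate block (Notch2 and Notch3, Notch3 at adjusted p = 0.0432), 2 with array weights (Notch2 and Dll3) and 0 without an intensity trend (Notch2 at 0.0615), and leaving out 1 array gave 0 to 2. The mean over probe sets called Notch3 (0.0437) in place of Notch2 (log2 change 0.22, adjusted p = 0.803). Averaged over lithium, 1 member was called, 2 with a filter at the 60th percentile (Notch3 at 0.0458), 3 with the replicate block (Notch3 at 0.0435 and Dll3 at 0.0400), 4 with array weights (also Hey1 at 0.0203), and 1 to 2 without 1 array. The mean over probe sets again called Notch3 (0.62, adjusted p = 0.0184) in place of Notch2 (0.49, adjusted p = 0.278).

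Of other pathway genes, 10 were called without lithium, against 3 under median centring, 5 without a trend, 21 with array weights, 3 with the mean over probe sets, 2 with only the compared arrays, and 1 to 13 without 1 array (5 or fewer without LIF replicate 2 or 3 or LIF-free replicate 1 or 2). With lithium 7 were called, against 18 with the replicate block, 16 with array weights and 3 to 13 without 1 array (13 without LIF replicate 3, and 4 or fewer without LIF plus lithium replicate 2 or 3 or LIF-free plus lithium replicate 1 or 2). Averaged over lithium 16 were called, against 9 with the mean over probe sets. In both lithium comparisons and the interaction, 0 members were called by limma under every alternative.

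Of all probe sets, 2515 were called without lithium, against 1560 under median centring, 1674 without a trend, 7870 with array weights, 1207 with the mean over probe sets, 1168 with only the compared arrays and 1039 (without LIF-free replicate 2) to 3950 (without LIF replicate 1), with each of the 6 compared arrays moving the count by over 1.5 times. With lithium 3368 were called, against 1490 under centring, 5938 with the replicate block, 6887 with weights, 1608 with the mean over probe sets and 1360 to 4311 without 1 array (1806 or fewer without LIF plus lithium replicate 2 or 3 or LIF-free plus lithium replicate 1 or 2). On average 6678 were called, against 3690 under centring, 10859 with weights and 3456 with the mean over probe sets. Lithium with LIF had 0, and 2 without LIF plus lithium replicate 1. The share of calls that were higher was 58.0% without lithium and 60.4% with it, against 83.1% and 34.8% under median centring. Array weights gave most weight to LIF replicate 2 (4.06) and least to LIF replicate 3 (0.309). An uncalled log2 change of a member turned its sign, without a call on either side, in 72 cases. Hes5 and Lfng, near a signal of 7.52, were too close to background for a test. The cause of these differences was not tested.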
